A study of Homo sapiens with 117 samples.

Results

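The CTCF sites described here were those that reached the strongest peaks of every IDH1 R132H sample after induction of double-strand breaks (DSBs) and of no IDH1 WT sample given the same treatment. They were chosen by measured values: the 20000 peaks with the highest fold over background were taken from each of the 4 R132H +DSB and the 4 WT +DSB peak lists, peaks that shared 1 bp or more were merged, and a merged site was kept if all 4 R132H lists and none of the WT lists held it. Of 24937 merged sites, 998 met the rule (4.00%), and they are called R132H-selected sites below, a name for the rule and not for the cells that hold them, since nearly all had a weaker peak in WT cells too. The mirror set, in all 4 WT +DSB lists and no R132H +DSB list, held 1347 sites (WT-selected sites), and 14784 sites were in all 8 lists. The lists that set the rule are given as a description, with no test.

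CTCF is a zinc finger protein that binds a long DNA motif and, with cohesin, anchors chromatin loops and the borders of topological domains. Methylation of CpG in some motifs weakens its binding. IDH1 R132H makes the metabolite D-2-hydroxyglutarate, which inhibits the TET enzymes that oxidise methylated cytosine, so the mutation is mostly discussed for CTCF sites that are lost, and sites that rank higher in mutant cells are the reverse case.

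The cells were DIvA cells, derived from the U2OS osteosarcoma line, in which a fusion of the AsiSI endonuclease with part of the estrogen receptor enters the nucleus on addition of 4-hydroxytamoxifen (4-OHT) and cuts DNA at its recognition sites. They received IDH1 WT or IDH1 R132H by lentivirus, so that the IDH1 gene of the host line remained in every group, and were left untreated (−DSB) or given 300 nM 4-OHT for 4 h (+DSB). Further groups of R132H cells overexpressed the catalytic domain of TET1 (TET1 CD) or a mutated version of it (TET1 dCD), with or without 4-OHT. CTCF peak lists were at hand for 24 samples: 3 of WT −DSB (replicates 2 to 4), 4 each of WT +DSB, R132H −DSB and R132H +DSB, 2 each of the TET1 CD groups, 3 of untreated TET1 dCD and 2 of treated TET1 dCD.

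Several lists stood apart or went against their labels. Peak names in the 3 lists labelled WT −DSB point to R132H cells and those in the 4 lists labelled R132H −DSB point to WT cells. Peak names in replicates 1 and 2 of TET1 dCD −DSB point to TET1 CD with 4-OHT, and groups below follow the labels. Some lists of a condition differed at shared summits by no more than the counting noise and were counted as 1 sample by their mean, which made 15 samples of the 24 lists (2 of WT −DSB, 2 of R132H −DSB, 1 for each TET1 CD group and 2 for each TET1 dCD group among the lists outside the rule). The study describes biological replicates for this assay, but neither it nor the labels say which lists share a culture, so the p-values below measure the spread between these samples, part of which may be technical. The list of TET1 dCD −DSB replicate 3 stood apart from replicates 1 and 2, with a variance at shared summits of 5.25 and 5.45 times the counting noise against them and fragments of 172 bp against 140 and 139 bp. Depth and fragment length moved with the groups of the rule. Fragment length, read from the shortest peak that a list held, was 121 to 127 bp in the R132H +DSB lists and 143 to 191 bp in the WT +DSB lists, and the summit at rank 20000 rested on 32 to 46 reads in the former and on 90 to 171 reads in the 3 WT +DSB lists whose reads came in whole steps (replicates 1, 2 and 4). These ranges do not overlap, so genotype, depth and fragment length cannot be told apart within the rule.

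Sequences are shown for 3 small groups of the R132H-selected sites that are described below, and most of the sites belong to none of them. The first set holds the 4 highest R132H-selected sites that carried the CTCF core motif within 50 bp of the summit, with the site nearest to the break DSB2. Each window is the 101 bases around the summit, from the plus strand of GRCh38, and capitals mark the match to the core motif, which lies on either strand.
PPP1R3A (chr7:114026647-114026747): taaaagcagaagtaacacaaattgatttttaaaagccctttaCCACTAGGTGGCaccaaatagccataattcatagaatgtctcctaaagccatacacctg
TRPM5 (chr11:2428325-2428425): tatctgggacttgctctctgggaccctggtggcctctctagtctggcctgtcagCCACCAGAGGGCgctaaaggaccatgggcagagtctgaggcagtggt
HPSE2 (chr10:99042885-99042985): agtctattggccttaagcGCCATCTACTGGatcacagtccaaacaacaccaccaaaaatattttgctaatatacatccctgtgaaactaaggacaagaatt
NARS2 (chr11:78586597-78586697): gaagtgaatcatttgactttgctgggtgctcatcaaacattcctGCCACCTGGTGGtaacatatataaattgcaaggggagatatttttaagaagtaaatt
SUN5 (chr20:33005221-33005321): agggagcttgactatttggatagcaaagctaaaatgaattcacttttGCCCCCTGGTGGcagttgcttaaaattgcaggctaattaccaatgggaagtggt

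The second set comes from promoters of the clustered protocadherin genes on chromosome 5, and capitals mark the longest run of bases, 10 in all, that the 3 windows share. Across all merged sites this run was present within 50 bp of the summit, on either strand, in 35 (0.140%), and in 8 of the R132H-selected sites. Of the 5 R132H-selected sites at gamma protocadherins and the 33 merged sites of the whole cluster, only the 3 shown held it, so it is not a feature of these promoters in general.
PCDHGA6 (chr5:141373787-141373887): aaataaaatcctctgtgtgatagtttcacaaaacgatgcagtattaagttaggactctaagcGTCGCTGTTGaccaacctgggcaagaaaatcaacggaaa
PCDHGB2 (chr5:141359881-141359981): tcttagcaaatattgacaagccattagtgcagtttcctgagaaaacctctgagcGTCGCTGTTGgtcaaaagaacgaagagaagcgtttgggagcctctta
PCDHGA3 (chr5:141343718-141343818): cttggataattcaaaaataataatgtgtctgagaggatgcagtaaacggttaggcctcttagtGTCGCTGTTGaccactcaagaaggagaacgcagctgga

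The last pair shows promoter sites whose summits lay on pyrimidine repeats, with no part in capitals.
FAIM (chr3:138609510-138609610): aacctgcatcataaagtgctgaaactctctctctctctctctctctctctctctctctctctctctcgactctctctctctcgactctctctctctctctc
SOX5 (chr12:23949724-23949824): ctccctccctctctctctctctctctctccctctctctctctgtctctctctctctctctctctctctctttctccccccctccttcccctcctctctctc

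The R132H-selected sites sat close to the cutoff in both genotypes. Their strongest peaks had median ranks of 15480, 15454, 16390 and 16330 in the 4 R132H +DSB lists and of 24611, 24144, 25940 and 26432 in the 4 WT +DSB lists, where rank 1 is the highest fold. None of the 998 lacked a peak in all of the WT +DSB lists, and between 996 and 997 had a peak of some strength in each. The best WT rank of a site ran from 20003 to 79551 with a median of 22506, and 420 sites lay within 2000 ranks of the cutoff. Just outside the rule, 584 sites were in all 4 R132H lists and in 1 WT list, where their median rank was 18192, and 301 of them lay within 2000 ranks of the cutoff. A further 511 sites were in 3 R132H lists and no WT list, with a median rank of 21095 in the R132H list that lacked them. On a log2 scale of fold over the fold at rank 20000 of the same list, the sites stood at a median of 0.48 in R132H +DSB and −0.48 in WT +DSB, and the median difference per site was 1.12 (quartiles 0.77 and 1.66). The same difference was 0.74 at sites in all 8 lists and 0.61 over all merged sites. The scale itself was thus shifted toward R132H, and a large part of the 1.12 was also present at sites in all 8 lists.

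The identity of the sites depended on the cutoff. With the 10000 highest peaks of each list the same rule gave 758 sites, of which 30 overlapped the 998. With the 50000 highest it gave 2077 sites, of which 13 overlapped them. The core motif was present in 27.4% of the 758 and in 0.0481% of the 2077.

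**Figure D1:**
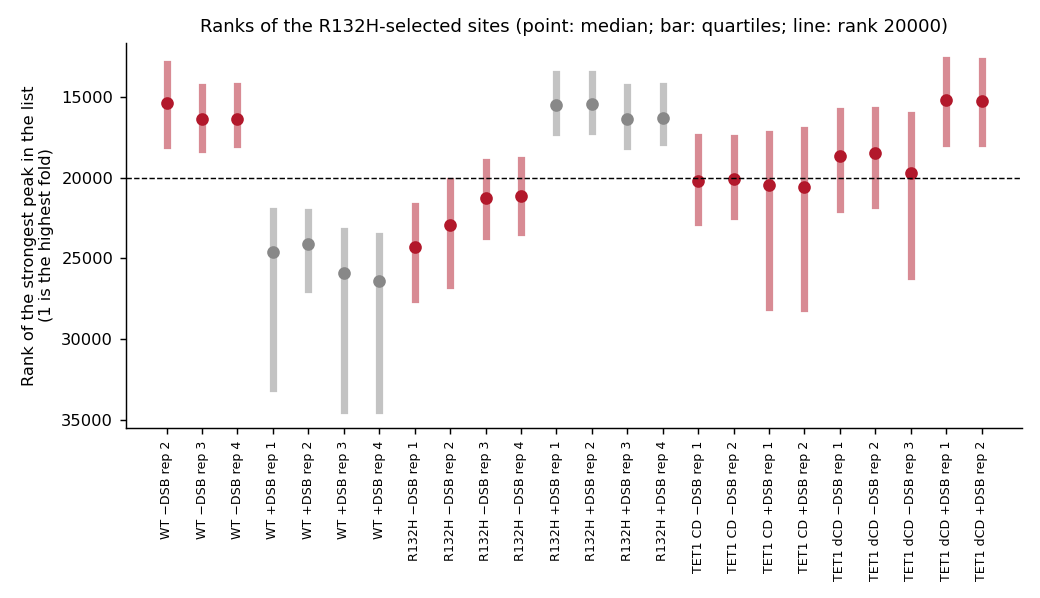
Ranks of the 998 R132H-selected sites in each of the 24 peak lists, with the point at the median, the bar from the lower to the upper quartile and the axis running down from rank 1 as the highest fold. The lists of the rule are grey, the dashed line is rank 20000, and outside the rule the medians of WT −DSB (15399 to 16386), TET1 dCD +DSB (15202 and 15234) and TET1 dCD −DSB (18483 to 19700) lie above the line.

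R132H-selected sites lay in DNA of lower GC content than the sets beside them, and few were near promoters. The GC content of the 200 bp around the summit had a median of 40.5% (quartiles 37.0 and 48.0%), beside 55% at WT-selected sites, 50.5% at sites in all 8 lists and 48.5% over all merged sites. They held a median of 1.00 CpG per 100 bp against 2.00 at WT-selected sites and at sites in all 8 lists. Of the 998, 155 had no CpG at all in the window (15.5%, 95% Wilson interval 13.4 to 17.9%), compared with 7.72% of WT-selected sites. A window rich in CpG, with at least 0.6 of the expected CpG and at least 50% GC, was present at 27 sites (2.71%, 1.87 to 3.91%), against 20.4% of WT-selected sites, 17.8% of sites in all 8 lists and 16% of all merged sites. These intervals cover counting error only, and since the sites share libraries and chromosomes no test was run over them.

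Promoters were few. The summit lay within 1 kb of the start of a protein-coding transcript at 28 R132H-selected sites (2.81%, 1.95 to 4.03%), at 19.7% of WT-selected sites, at 11.7% of sites in all 8 lists and at 12% of all merged sites. The median distance to such a start was 76.8 kb, beside 15.1 kb for WT-selected sites and 20.6 kb for sites in all 8 lists. By GENCODE, 509 sites were outside protein-coding genes and lncRNAs (51%), 310 were in introns of protein-coding genes (31.1%), 126 in introns of lncRNAs, 20 in exons of lncRNAs, 9 in coding exons, 19 in untranslated exons and 5 in other exons of protein-coding genes. Of the WT-selected sites 33.9% were outside these genes.

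The core motif matched within 50 bp of the summit at 153 R132H-selected sites (15.3%, 13.2 to 17.7%). It matched at 12% of WT-selected sites, 26.6% of sites in all 8 lists and 21.2% of all merged sites. In a window of like length 500 to 600 bp from the summit it matched at 0 of the 998 (upper limit 0.383% by the Wilson interval). With 1 mismatch allowed the share was 46.5%, beside 51.4% of WT-selected sites, 68.7% of sites in all 8 lists and 59.5% of all merged sites. R132H-selected sites were thus below WT-selected sites here, the opposite of the order with the exact motif. Of the 464 matches at R132H-selected sites, 16 held a CpG (3.45%, 2.13 to 5.53%). This compares with 9.24% of the matches at WT-selected sites and 9.38% of those at sites in all 8 lists.

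The share of merged sites that were R132H-selected fell step by step with GC content. It was 10.0% up to 35% GC, 7.43% from 35 to 40%, 4.71% from 40 to 45%, 4.20% from 45 to 50%, 2.73% from 50 to 55% and 1.03% above. WT-selected sites ran the opposite way, from 1.12% to 8.23%. The lists of the rule also differed in base composition as a whole, as the median GC of their 20000 highest peaks was 48.0 to 48.5% in R132H +DSB and 50.0 to 51.5% in WT +DSB.

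**Figure D2:**
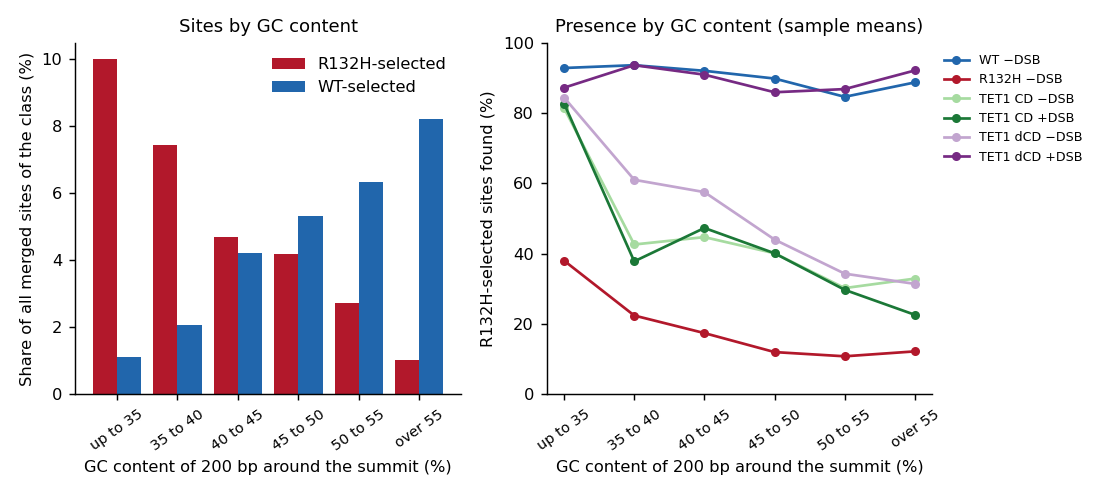
Left, the share of all merged sites of each GC class that were R132H-selected (red) or WT-selected (blue). Right, the share of R132H-selected sites of each class found among the 20000 highest peaks, as means over samples of each condition outside the rule; the share stayed between 84.6% and 93.6% in WT −DSB and TET1 dCD +DSB and was lower above 55% than up to 35% GC in the other conditions.

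Part of the R132H-selected sites were tandem repeats. At 120 sites (12%, 10.2 to 14.2%) the 500 bp around the summit matched itself at 70% or more when shifted by a distance of up to 400 bp, whereas 0 of the 1347 WT-selected sites did (upper limit 0.284%) and 30 of the 14784 sites in all 8 lists did (0.203%). The commonest shift was 340 bp, at 70 of the 120, and no annotation of repeats was used, so the repeats carry no family name here. None of the 120 was at a promoter or had the core motif, even with 1 mismatch. Bins of 10 Mb that hold centromeres had many R132H-selected sites of any kind and many merged sites. The bin of chromosome 10 from 40 to 50 Mb held 39 of 334 merged sites (11.7%), the corresponding bin of chromosome 5 held 23 of 218 (10.6%), that of chromosome 19 from 20 to 30 Mb held 21 of 196 (10.7%) and that of chromosome 1 from 120 to 130 Mb held 18 of 187 (9.63%). These bins held 4, 0, 1 and 0 WT-selected sites. ZNF33B, a zinc finger gene beside the chromosome 10 centromere, was the nearest protein-coding gene for 33 R132H-selected sites, more than any other, followed by SRGAP2C (18), EMB (15), ZNF254 (14) and ZNF37A (13). In all, 756 genes were nearest to the 998 sites and 668 of them to a single site.

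Across all 727 merged sites that were tandem repeats, the share found differed widely between lists. It was 44.6 to 84.6% in R132H +DSB, 4.40 to 22.7% in WT +DSB, 48.1 to 86.1% in WT −DSB and 12.5 to 32.6% in R132H −DSB. It was 87.8 and 90% in TET1 dCD +DSB, and 6.33 and 7.15% in TET1 CD +DSB. Untreated, it was 19.3 and 20.2% in TET1 CD and 62.2, 66.9 and 8.80% in TET1 dCD, where replicate 3 lay below both TET1 CD lists. Reads of a repeat can be placed at several copies, and the part of this in the result was not tested.

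Among chromosomes 1 to 22 and X, R132H-selected sites made up 12.5% of the merged sites of chromosome X (81 of 646), 8.69% of those of chromosome 13, 7.83% of chromosome 8 and 7.28% of chromosome 4, compared with 1.36% of chromosome 2 and 2.17% of chromosome 14. WT-selected sites made up 2.17, 2.90, 1.79 and 1.84% of the first 4, and 7.93% of chromosome 2. Of the 49 merged sites placed on chromosome Y, 8 were R132H-selected (16.3%) and 0 were WT-selected. The highest of the 8 was a tandem repeat, and whether the cells hold a chromosome Y was not examined. Placement of peaks there thus does not by itself show binding on that chromosome. In the 10-Mb bin of chromosome 8 from 90 to 100 Mb, 23 of 51 merged sites were R132H-selected (45.1%) and none was WT-selected. On chromosome X the bin from 20 to 30 Mb held 12 of 34 (35.3%). The 81 sites of chromosome X had a median GC of 43.5% and the core motif at 29.6%, compared with 40.5% and 14.2% for the 909 on autosomes. Copy number of these regions in the cell populations was not measured, and its part was not tested.

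**Figure D3:**
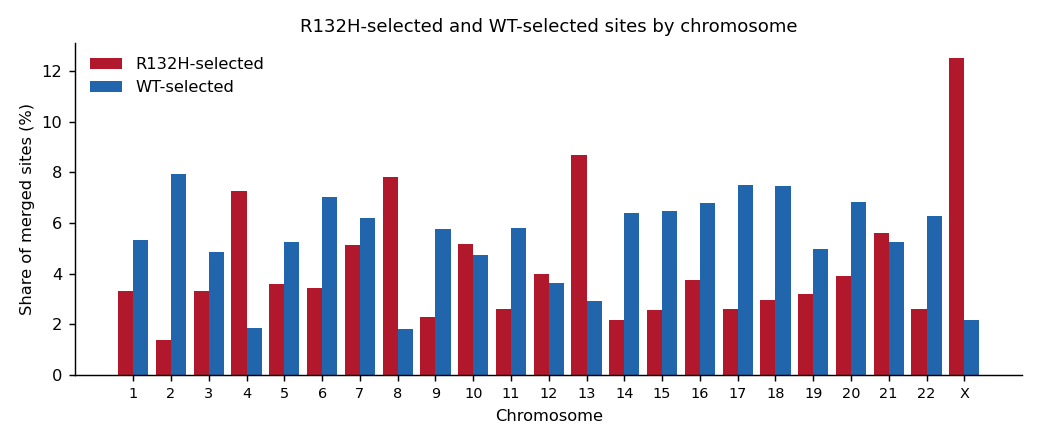
Share of the merged sites of each chromosome that were R132H-selected (red bars) or WT-selected (blue bars). Chromosome Y is not drawn; R132H-selected sites reach 12.5% on chromosome X and are lowest on chromosome 2 at 1.36%, where WT-selected sites reach 7.93%.

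The lists outside the rule show in which other conditions the sites ranked high. Without DSB they were found more often in the lists labelled WT than in those labelled R132H. Among the 20000 highest peaks, the WT −DSB lists held 89.8, 92.4 and 93.2% of the R132H-selected sites and the R132H −DSB lists held 10.0, 23.4, 35.2 and 35.9%, in the order of their replicates. The ranges are far apart, and every WT list is above every R132H list, the order opposite to that which set the rule. Each of these lists held 76.1 to 78.3% of all merged sites. After counting like lists once, WT −DSB averaged 91.3% ± 2.13 (SD, n = 2) and R132H −DSB 20.8% ± 15.2 (SD, n = 2), a difference of −70.5 percentage points (two-sided exact permutation test, p = 0.333, adjusted p = 0.333 over 6 tests), and 2 samples against 2 cannot give less than 0.333. The size rests on the depth looked up, as the difference was −5.85 points among the 10000 highest peaks, −1.25 among the 50000 highest and −0.100 among all deposited peaks. The WT-selected sites ran the other way, with 2.38, 5.79 and 4.97% found in the WT −DSB lists and 88.4, 78.1, 62.8 and 65.9% in the R132H −DSB lists. The share of R132H-selected minus that of WT-selected sites averaged −57.9 points in R132H −DSB and 87.4 in WT −DSB, a difference of −145 (exact permutation test, p = 0.333, adjusted p = 0.333). With groups taken from the peak names inside the lists, the first difference becomes 70.5 and the second 145, so the direction rests on which of the 2 namings is right.

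Site by site, 347 of the 998 were in all 3 WT −DSB lists and no R132H −DSB list (34.8%), a pattern that 2.63% of all merged sites had. The order that set the rule, in all 4 R132H −DSB and no WT −DSB list, was shown by 0 of them, against 3.81% of all merged sites and 42.8% of WT-selected sites. The 5 highest of the 347 were 191 kb from ZNF521, a zinc finger transcription factor gene, 224 kb from GLRX3, which encodes a glutaredoxin, in CCDC200 at 2 places, and 21.8 kb from FAM163B. The site near ZNF521 ranked 1805, 14293 and 12130 in the WT −DSB lists and 32768, 30269, 27047 and 21914 in the R132H −DSB lists. Those ranks do not overlap, and the groups at GLRX3 do not either, with 3035, 10535 and 7646 in WT −DSB against 30333, 35206, 21974 and 21168 in R132H −DSB.

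**Figure D4:**
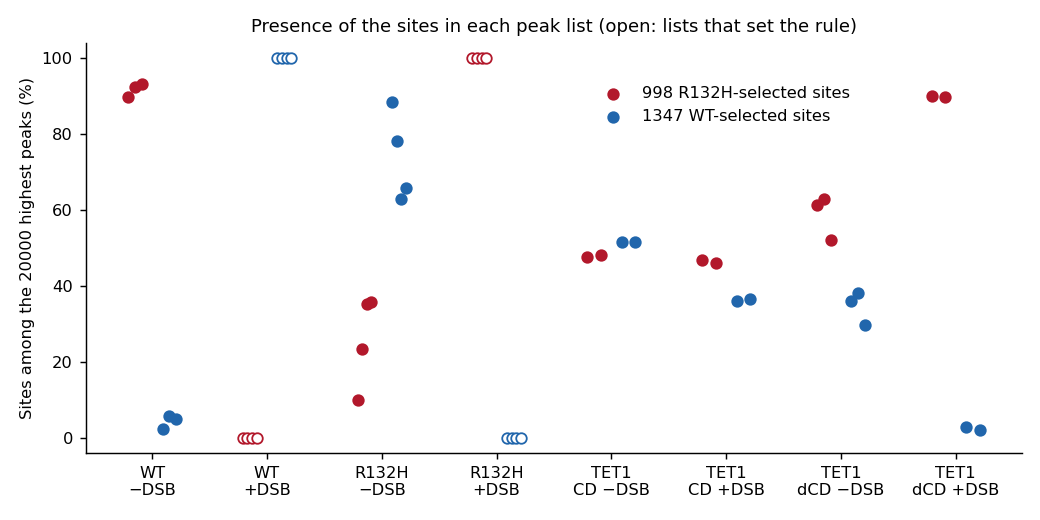
Share of the R132H-selected sites (red) and of the WT-selected sites (blue) among the 20000 highest peaks of each list, with 1 point per list and the lists of the rule as open circles. R132H-selected sites were at 89.8 to 93.2% in WT −DSB and 10.0 to 35.9% in R132H −DSB, and at 89.7 and 90.1% in TET1 dCD +DSB against 46.1 and 46.8% in TET1 CD +DSB.

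The TET1 lists all come from R132H cells, so that they show the sites with active and with mutant TET1 in the same IDH1 background. TET1 CD −DSB held 47.7 and 48.2% of the R132H-selected sites and TET1 CD +DSB 46.8 and 46.1%. TET1 dCD −DSB held 61.2, 63.0 and 52.0%, and TET1 dCD +DSB 90.1 and 89.7%. Every dCD list was above every CD list of the same treatment. The mean difference of CD from dCD over both treatments was −26.3 percentage points (47.2% over 2 samples against 73.5% over 4), with p = 0.111, the smallest that the design allows, by the exact permutation test within treatment (adjusted p = 0.333). It was −28.8 without TET1 dCD −DSB replicate 3, and −3.26 among the 10000 highest peaks. R132H-selected minus WT-selected sites differed by −52.3 points between CD and dCD (exact permutation test, p = 0.111, adjusted p = 0.333). WT-selected sites were found at 51.5 and 51.6% in TET1 CD −DSB, 36.2 and 36.7% in TET1 CD +DSB, 36.0, 38.1 and 29.8% in TET1 dCD −DSB, and 2.82 and 2.15% in TET1 dCD +DSB.

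With 4-OHT the share of R132H-selected sites went from 57.1% ± 7.16 (SD, n = 2) to 89.9% ± 0.283 (SD, n = 2) in TET1 dCD cells, a change of 32.8 points, and changed by −1.50 points in TET1 CD cells, which had 1 sample on each side. The mean over both constructs was 15.7 points higher with 4-OHT (exact permutation test within construct, p = 0.333, smallest possible 0.167, adjusted p = 0.333). R132H-selected minus WT-selected sites were 38.7 points higher (exact permutation test, p = 0.167, the smallest possible, adjusted p = 0.333). None of the 6 tests could fall below 0.05 with these samples, so none of them decides whether the shares differ.

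Site by site, 427 of the 998 were in both TET1 dCD +DSB lists and in neither TET1 CD +DSB list (42.8%), compared with 7.61% of all merged sites. The 5 highest were the sites near RUNX3, a RUNX family transcription factor gene, and CDH20, a cadherin gene, and 3 sites in CCDC200. The reverse was shown by 11 sites (1.10%, against 7.17% of all merged sites), the highest of which lay 2.95 kb from a start of CACNA1A, which encodes a calcium channel subunit, 3.07 kb from TPM3, a tropomyosin gene, 2.47 kb from HAL, the histidine ammonia-lyase gene, 31.0 kb from ATP6V1H, a subunit of the vacuolar proton pump, and 1047 kb from SLC6A15, a transporter of neutral amino acids. The CACNA1A site ranked 19879 and 19941 with TET1 CD +DSB and 21210 and 22321 with TET1 dCD +DSB, so that its groups parted by a small step across the cutoff. By contrast the CDH20 site ranked 21709 and 22199 with CD and 3652 and 4071 with dCD.

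An R132H-selected site was found in a median of 9 of the 16 lists outside the rule (quartiles 7 and 12), and 633 were found in 8 or more (63.4%). All 16 lists held 33 of the sites (3.31%, against 57.0% of all merged sites). In none of the 16 were 3 sites (0.301%, against 3.95% of all merged sites), named here after their values were seen. They lay 105 kb from PTTG1, the securin gene, 90.3 kb from ZC4H2, a zinc finger gene on chromosome X, and 23.3 kb from TH, which encodes tyrosine hydroxylase.

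Presence also followed fragment length. The lists with fragments of 118 to 128 bp outside the rule (WT −DSB and TET1 dCD +DSB) held 89.7 to 93.2% of the R132H-selected sites, and the lists from 139 to 194 bp held 10.0 to 63.0%. Within lists of like fragment length, TET1 dCD −DSB replicates 1 and 2 (140 and 139 bp) held 61.2 and 63.0%, TET1 CD −DSB (143 and 141 bp) held 47.7 and 48.2%, and R132H −DSB (144 to 150 bp) held 10.0 to 35.9%. TET1 CD +DSB had the longest fragments, 194 bp in both lists, and held 46.8 and 46.1%. Depth also differed between these groups. Summit reads at the cutoff were 33, 50 and 48 in WT −DSB and 100, 60, 69 and 69 in R132H −DSB. They were 101 and 120 in TET1 CD +DSB and 32 and 30 in TET1 dCD +DSB. Between WT −DSB and R132H −DSB, and between TET1 CD +DSB and TET1 dCD +DSB, fragment length, depth and group cannot be told apart.

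**Figure D5:**
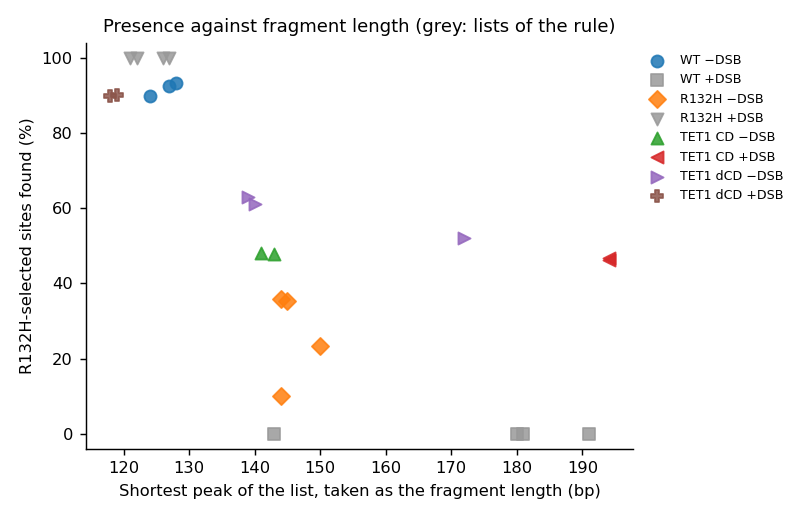
Share of R132H-selected sites found in each list against the length of its shortest peak, taken as the fragment length, with 1 marker per list and the lists of the rule in grey. The 5 lists outside the rule at 118 to 128 bp lie at 89.7 to 93.2%, and those from 139 bp upward lie between 10.0 and 63.0%.

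GC content separated the R132H-selected sites in these lists as well. Sites up to 35% GC were found at 81.4% in TET1 CD −DSB, 82.7% in TET1 CD +DSB and 84.4% in TET1 dCD −DSB as means over samples, and sites above 55% GC at 32.9, 22.6 and 31.4%. In R132H −DSB the share went from 38.0% to 12.2%. In WT −DSB it was 92.8% and 88.7%, and in TET1 dCD +DSB 87.2% and 92.1%. The tandem repeats were found at 99.2% in TET1 dCD +DSB and at 2.08% in TET1 CD +DSB, whereas the 878 other sites were found at 88.6% and 52.5%.

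Ranked by their fold over the cutoff in the 4 R132H +DSB lists, 5 of the 10 highest R132H-selected sites were tandem repeats and 3 lay in the U2 array described below. The highest lay on chromosome 8, 190 kb from ADCY8, an adenylyl cyclase gene, in a window of 14.5% GC that repeated at 30 bp. It ranked 1165, 1014, 2100 and 1758 in R132H +DSB and 44257, 32576, 43589 and 62107 in WT +DSB. In the untreated lists it ranked 214, 1671 and 664 in those labelled WT and 24961, 20997, 4493 and 7569 in those labelled R132H, so that it was higher in every WT −DSB list. The second lay at chr1:25002064-25002637, 37.2 kb from RUNX3, and ranked 936, 928, 3390 and 3191 in R132H +DSB and 28864, 23208, 30690 and 30755 in WT +DSB. The third lay at chr20:52422798-52425093 in an intron of LINC01524, 233 kb from ZFP64, a zinc finger gene, and ranked 1063, 1782, 2320 and 2698 against 42828, 35559, 31644 and 31064. Both repeated at 30 bp.

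The site at chr18:61022929-61023972, 310 kb from CDH20, was the R132H-selected site with a log2 fold over the cutoff of 1.95 in R132H +DSB and −2.80 in WT +DSB, as means over lists. It ranked 3100, 916, 2861 and 2606 in the R132H +DSB lists, and in the WT +DSB lists 64528, 71881 and 194210 with no peak in replicate 3. Of the other highest sites, the one 19.0 kb from CYTH4, which encodes a guanine exchange factor for ARF proteins, ranked 3018, 1008, 4678 and 6337 against 34523, 24470, 29454 and 31479.

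The U2 snRNA gene array in CCDC200 on chromosome 17 gave 3 of the 10 highest sites. U2 is a small RNA of the spliceosome whose genes lie in tandem. Of 12 merged sites nearest to an annotated U2 start there, 10 were R132H-selected, and none was WT-selected. All 10 were in every WT −DSB list and in both TET1 dCD +DSB lists, 0 were in a TET1 CD +DSB list or in TET1 dCD −DSB replicate 3, and R132H −DSB held 1, 1, 7 and 7. TET1 CD −DSB held 7 and 10, and TET1 dCD −DSB replicates 1 and 2 held 7 and 9. The copies share sequence, so their reads may be shared between them and the 10 sites are not independent.

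Among sites far below the WT cutoff, 13 were beyond rank 50000 in all 4 WT +DSB lists, singled out here after their values were seen. Of these, 6 held the same sequence, identical over at least 51 bases of their 101-base windows, near the ends of chromosomes 1, 3, 5, 9 and 19, with OR4F5 and OR4F16, olfactory receptor genes, among the nearest genes. A further 4, with nearest genes GGCT, TMCO3, SSBP1 and BAIAP2L2, were linked by windows 86.2 to 89.0% identical. The 13 sites thus stand for fewer sequences than sites. The 10 in these groups were found in 3 to 6 of the 16 lists outside the rule.

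The clustered protocadherins made up 7 of the 28 promoter sites. These genes encode cell adhesion proteins of neurons, and CTCF is known to bind beside their alternative promoters and to take part in the choice of the promoter used. The 7 were PCDHGA3, PCDHGA4, PCDHGA6, PCDHGA10, PCDHGB2, PCDHB7 and PCDHA2, a group chosen after the values were seen. Their summits lay 46 to 76 bp from the start. Of the 33 merged sites nearest to these genes, 17 were in all 8 lists, 7 were R132H-selected and 0 were WT-selected. The 7 had 35 to 46% GC and none had the core motif with up to 1 mismatch.

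At PCDHGA6 (chr5:141373318-141374252) the ranks were 12033, 11995, 12592 and 13545 in R132H +DSB and 31625, 29066, 36453 and 34941 in WT +DSB. Untreated, the same site ranked 13984, 11400 and 12890 in the WT lists and 39367, 43136, 21877 and 22972 in the R132H lists. With TET1 CD +DSB it ranked 9669 and 9542, and with TET1 dCD +DSB 11450 and 11457, so both constructs placed it above the cutoff. The WT −DSB lists held 5, 7 and 7 of the 7 sites and the R132H −DSB lists 0, 1, 1 and 1. TET1 CD +DSB and TET1 dCD +DSB lists held all 7, TET1 CD −DSB 6 and 3, and TET1 dCD −DSB 5, 3 and 7. PCDHGA3, PCDHGA4 and PCDHGB2 also lay within 10 kb of an AsiSI site.

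The other promoter sites were of mixed function. The highest was at STX6, which encodes a SNARE protein of the trans-Golgi network, 46 bp from the start, with ranks of 7129, 5783, 7892 and 7332 in R132H +DSB and 23260, 21463, 20765 and 20423 in WT +DSB. At FAIM, which encodes an inhibitor of Fas-induced apoptosis, the ranks were 7696, 9830, 10196 and 8431 against 31075, 26029, 24009 and 24364. At INTS8, a subunit of the Integrator complex that processes small nuclear RNAs, they were 9119, 10443, 8277 and 8875 against 24161, 24099, 25927 and 25793. At HMGA2, which encodes an AT-hook chromatin protein, they were 9724, 11892, 13713 and 11355 against 33266, 30239, 27541 and 27382. SLITRK3 and NLGN1, synaptic adhesion genes, and SOX5, a transcription factor gene, completed the 10 highest with the protocadherins PCDHGA6, PCDHB7 and PCDHGA4.

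HMGA2, FAIM, SLITRK3 and SOX5 showed the same pattern in the lists outside the rule, being found in 5 of the 16, which were the 3 WT −DSB and the 2 TET1 dCD +DSB lists. At SOX5 the ranks were 13630, 14681 and 13987 in WT −DSB, 9616 and 11999 in TET1 dCD +DSB, and 21614 to 30143 in the other 11 lists. NLGN1 and INTS8 were found in 14 of the 16. Over the 28 promoter sites, 84.8% were found in WT −DSB, 12.5% in R132H −DSB, 48.2% and 53.6% in TET1 CD without and with 4-OHT, and 46.4% and 91.1% in TET1 dCD, as means over samples.

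The 153 R132H-selected sites with the core motif were found at 91.7% in WT −DSB, 24.8% in R132H −DSB, 59.2% and 57.2% in TET1 CD and 61.9% and 87.3% in TET1 dCD without and with 4-OHT. The highest, in an intron of PPP1R3A, which encodes a glycogen-targeting subunit of protein phosphatase 1 (chr7:114025776-114027276), had its motif 2 bp from the summit, no CpG in the 200 bp and ranks of 8583, 8618, 9054 and 7302 in R132H +DSB against 23225, 22906, 24836 and 24517 in WT +DSB. It was in 15 of the 16 lists outside the rule, including R132H −DSB replicates 1, 3 and 4 at 19623, 16912 and 14577. The site in an intron of TRPM5, a cation channel gene of taste cells (chr11:2427931-2428882), ranked 7319, 8661, 7902 and 9443 against 22396, 21094, 24075 and 22481. Those in HPSE2, the heparanase 2 gene, and near NARS2, a mitochondrial asparaginyl-tRNA synthetase gene, ranked 8974 and 6311 in R132H +DSB replicate 1 and 24311 and 23267 in WT +DSB replicate 1. The fifth, on chromosome 8 48.2 kb from MTDH, was in 14 of the 16 lists.

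Sites near an AsiSI sequence were few in every set. Of the 998, 7 were within 10 kb of an AsiSI site (0.701%, 0.340 to 1.44%). The share was 2.08% of WT-selected sites, 1.63% of sites in all 8 lists and 1.42% of all merged sites, and the last lies within the interval. The median distance of the 998 was 1272 kb. AsiSI sites were all 1228 matches of the recognition sequence, and which of them were cut was not measured. The 5 highest of the 7 were near TMCO3, at the PCDHGA4, PCDHGB2 and PCDHGA3 promoters and 141 kb from ASTN2, which encodes a neuronal membrane protein. The TMCO3 site, 9.57 kb from an AsiSI site, belonged to the 4 like sequences above and ranked 9361, 8675, 18363 and 15992 in R132H +DSB and 97149, 87903, 107898 and 65466 in WT +DSB. The ASTN2 site, 2.76 kb from an AsiSI site and with the core motif, ranked 15949, 14104, 15221 and 16297 against 24402, 24814, 25310 and 22317.

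Around DSB1, the AsiSI site at KYAT3 and RBMXL1 on chromosome 1 (chr1:88992913-88992920), 1 of 23 merged sites within 1 Mb was R132H-selected and 0 were WT-selected. It lay 397 kb away in PKN2-AS1, with PKN2, a protein kinase gene, as the nearest protein-coding gene, and ranked 15049, 17448, 13366 and 16660 in R132H +DSB and 20312, 21885, 20760 and 21588 in WT +DSB. In the untreated lists it ranked 14269, 17177 and 17441 with WT and 22491, 21576, 19113 and 19845 with R132H, so that 2 of the R132H −DSB lists held it. Around DSB2, the site in ASXL1 on chromosome 20 (chr20:32358509-32358516), 1 of 30 merged sites within 1 Mb was R132H-selected and 0 were WT-selected. That site lay 647 kb away, 838 bp from the start of SUN5, a gene of the sperm nuclear envelope, and its motif is among the sequences above. It ranked 16316, 19128, 16112 and 19480 in R132H +DSB and 30911, 28019, 36123 and 34306 in WT +DSB, and 16143, 17581 and 17734 in WT −DSB against 26880, 25740, 23515 and 23712 in R132H −DSB.

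Among genes of DNA repair, CTCF and DNA methylation, 1 was nearest to an R132H-selected site. Of 24 genes of homologous recombination, 13 were nearest to a merged site, with 27 sites in all, and 0 of these were R132H-selected or WT-selected. Of 11 genes of end joining, 5 were nearest to 9 sites, of which 1 was R132H-selected, 38.3 kb from LIG4, the DNA ligase of end joining. It ranked 14421, 13953, 11944 and 12226 in R132H +DSB and 27810, 23255, 27156 and 26670 in WT +DSB. None of 26 sites nearest to 14 of 15 genes of CTCF and cohesin and none of 18 sites nearest to 12 of 17 genes of DNA methylation and IDH was R132H-selected. Over all merged sites the share was 4.00%, so groups this small cannot show whether these genes differ from the rest.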

How the data were processed

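CTCF ChIP-seq peaks of 24 samples were analysed. Per the labels, reads were trimmed with cutadapt 1.18 and mapped with Bowtie2 2.3.4.1 to hg38 (GRCh38), and the study's methods call peaks per sample with MACS2 against input, giving conflicting versions. The fold (ratio) values that the authors deposited are reads at the summit plus 1 over background plus 1, by their steps, and they were used to rank peaks within a list and are not normalized between lists. Of the significance values deposited for each peak, as −log10 p and −log10 q, only −log10 q was used, in alternatives. The depth of a list was not given, and summit reads were recovered from the steps of the fold values, which were whole in 23 of the 24 lists (WT +DSB replicate 3 was scaled). In those 23 lists the background had the same value at every site. Their fold was therefore not corrected for input reads or copy number at the site, which bears on repeats and on regions rich in sites.

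Ranks were taken with ties in file order. Pairs of lists of a condition were compared by a chi-square test of reads at summits within 60 bp of each other, with means of at least 20 and under 50 reads, and counted as 1 sample if p was at least 0.05 while another pair differed, or, for an only pair, if the spread lay below counting noise. Genes came from GENCODE release 44. The CTCF core motif of 12 letters was searched on both strands. The summit of the strongest peak stood for a site. Tests were two-sided exact permutation tests over samples, adjusted by Benjamini-Hochberg over 6 tests, with Python 3.11.15, numpy 2.4.6, pandas 2.3.3 and scipy 1.17.1. The steps were tested on simulated data. The sites named were the 10 highest by mean log2 fold over the cutoff in R132H +DSB, the 10 highest at promoters, the 5 highest with the motif, up to 5 near AsiSI sites or with opposite presence in untreated or TET1 +DSB lists, those nearest to DSB1 and DSB2, and those nearest to listed genes. The sites, the gene lists and these rules were chosen with earlier results of these data known. The 4C-seq and input samples and the list of WT −DSB replicate 1 were not analysed here. One gene of the lists is not reported here.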

Additional observations from a re-analysis of the deposited data

Results flagged for a closer look

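The share of R132H-selected sites found was higher with 4-OHT in TET1 dCD cells, by 32.8 percentage points, and changed by −1.50 points in TET1 CD cells, and these changes differ by 34.3 points. They were singled out because their signs are opposite, and the difference was not tested. TET1 CD had 1 sample per treatment, so its sign has no replicate check, and peak names in replicates 1 and 2 of TET1 dCD −DSB point to TET1 CD with 4-OHT. Those replicates held 61.2 and 63.0%, beside 47.7 and 48.2% in TET1 CD −DSB. Grouped by peak names they would raise the share of TET1 CD +DSB, so the opposite sign rests on the labels.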

How the results depend on the processing

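The sizes of the 6 differences rest on looking up the 20000 highest peaks. The R132H against WT difference of −70.5 points was −5.85 with the 10000 highest, −1.25 with the 50000 highest, −1.57 with −log10 q of at least 10 and −0.100 with all deposited peaks, and that of −145 was −11.8, −16.5, −26.9 and −2.51. TET1 CD against dCD, at −26.3 and −52.3, was −3.26 and −3.69 with the 10000 highest, and in the difference of both sets −11.5, −21.8 and −1.24 in the other 3. The 4-OHT differences of 15.7 and 38.7 were 3.46 and 3.58 with the 10000 highest, the first was 0.0251 and 0.238 with the 50000 highest and the −log10 q limit, and the second 11.8, 21.5 and 1.43 in the other 3. With every list as its own sample, 5 of them had an adjusted p of 0.0400 by the exact permutation test. They were −65.7 and −135 points for R132H against WT without DSB, −27.1 and −52.6 for TET1 CD against dCD, and 38.4 for 4-OHT in the difference of both sets. That setting counts lists that differed by no more than counting noise as separate samples, so its p-values do not rest on independent samples and decide nothing. Groups from the peak names turned the R132H against WT differences to 70.5 and 145. With the same groups TET1 CD against dCD was −19.8 and −47.9, and the 4-OHT differences were 22.1 and 43.2. TET1 CD against dCD turned to 0.0251 with the 50000 highest peaks looked up and to 0.138 with all peaks of −log10 q of at least 10. The 4-OHT difference turned to −0.0501 with all deposited peaks. In every TET1 list 990 to 998 of the 998 sites were within rank 50000 and 994 to 998 had a peak. Shares this close to full leave little room for a difference of either sign, and the cause of the turned signs was not tested. Leaving out 1 list at a time gave −72.0 to −59.8 and −148 to −125 for R132H against WT, −28.8 to −26.1 and −53.0 to −52.0 for TET1 CD against dCD, and 13.1 to 15.9 and 38.0 to 39.0 for 4-OHT.

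Lists of R132H and WT −DSB with the same replicate number deviated together only weakly (correlations over the sites of 0.27, 0.17 and 0.09), so the numbers were not taken to pair them, and with the replicate block the differences were −60.3 and −125 points (p = 0.250, the smallest that 3 pairs allow, by exact sign flips). Leaving out the tandem repeats, or keeping sites of 35 to 55% GC, both chosen after seeing the data, changed no direction.

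The number of sites, 998, became 2077 with the 50000 highest peaks and 2183 with at least 3 R132H lists and at most 1 WT list, and 1026 to 1410 without 1 list, the latter without WT +DSB replicate 2. Leaving out a list loosens the rule, so the higher numbers and the overlap with all 998 sites were built in. Promoters made up 0.385% with the 50000 highest, 4.81% within 2.5 kb of a start, 7.11% with starts of all annotated genes and 2.34 to 3.02% without 1 list. Windows rich in CpG made up 0.433% with the 50000 highest, 1.00% at the stricter limits and 2.48 to 3.02% without 1 list. The core motif was at 27.4% with the 10000 highest, 0.0481% with the 50000 highest, 46.5% with 1 mismatch and 13.1 to 16.4% without 1 list. The cause of these shifts was not tested. Summit reads of 32 to 46 at the cutoff in R132H +DSB limit how finely sites near it can be ordered.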
